A study of Arabidopsis thaliana and Nicotiana tabacum with 16 samples.

Results

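The 2 kit libraries, ligation-free and ligation-based, were set against 3 libraries made without rRNA depletion, all from 14-day-old Arabidopsis thaliana seedlings, and the genes that moved the same way in both kit libraries were collected. The kit libraries are 2 of the 16 libraries of the series. Of the 27628 genes in both count tables, 14823 had at least 10 counts in at least 2 of the 5 libraries and were tested, and 4083 of these moved the same way in both kit libraries. A gene was counted as moved when edgeR's quasi-likelihood test gave a Benjamini-Hochberg adjusted p under 0.05 and both kit libraries lay beyond all 3 undepleted libraries on the same side.

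Ribosome profiling sequences the short mRNA fragments that a translating ribosome shields from a nuclease, so the counts over a coding sequence (CDS) follow how many ribosomes sat on the transcripts of that gene. Fragments of ribosomal RNA are released by the same nuclease and dominate such libraries unless they are removed, here by hybridisation to complementary biotinylated DNA oligos. Plant libraries hold footprints of 3 kinds of ribosome, since chloroplasts and mitochondria translate their own genes.

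Both kit libraries came from lysate digested with 600 U of RNase I, were rRNA-depleted and were size-selected at 20 to 35 nt. The ligation-free library was made with a polyadenylation and template-switching kit (D-Plex), and the ligation-based library with a kit that joins adapters by RNA ligase after end repair (NEXTflex). The undepleted libraries came from lysate treated with 400, 550 or 700 U of the same nuclease and were size-selected at 20 to 50 nt. They were made with a ligase kit whose version the paper does not state. All 5 used wild-type Col-0 seedlings from agar plates under equal light and dark periods, with no genotype or treatment difference. Depletion and fragment size changed together between the groups, the kit dose equalled none of the undepleted doses while lying within their range, plants came from different experiments, and 1 of the kit libraries also used another kit, so these cannot be told apart as sources of a difference. Each library is a single one of its condition, the labels do not say whether the kit libraries shared one RNA preparation, and the sources used here do not state the time of day of harvest. The p-values therefore measure only the spread between these 5 libraries. A repeat library of the 700 U fragments and the depleted libraries V1 and V2 (600 U, 20 to 35 nt, 14-day) serve as further references.

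The kit libraries held 4124753 (ligation-free) and 2472194 (ligation-based) CDS counts, and the undepleted ones between 2338819 and 3273178, so a level of 3 counts corresponded to 0.727 to 1.28 CPM (counts relative to library size, TMM-scaled below) across the 5. Green-tissue, root and seed markers were compared first. Light-harvesting proteins summed to 35417 and 52862 CPM in the kit libraries, against 48911 to 57197 CPM in the undepleted ones. Root markers summed to 1747 and 1884 CPM in the kit libraries and 1524 to 1611 CPM in the undepleted ones. Of 9 root markers tested 2 moved higher and none lower, against 13.1% and 14.5% of all genes tested, and 7 were not called. JAL22 rose by 0.36 and NAI2 by 0.34 on the log2 scale. The largest change of the 9 was that of IRT1, at -0.78, which was not called. The number higher was 0 by DESeq2 and 0 without any 1 of the undepleted libraries. It also changed when either kit library was left out. In whole seedlings, fewer cells of a type and less RNA per cell cannot be told apart. All 9 seed storage and oil-body genes fell below the count minimum, and 5 of them had 0 counts in both kit libraries.

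AT2G01021 changed most among the genes tested. It is annotated as an uncharacterized protein of chromosome 2 whose short CDS lies at chr2:6571-6669 on the plus strand (TAIR10). It had 4 and 10 counts in the ligation-free and ligation-based libraries, against 3200, 3812 and 3849 counts at 400, 550 and 700 U. On the log2 scale it fell by 9.27 (SE 0.28, edgeR adjusted p = 5.3e-17). Its CDS is printed because it is the only one of 27508 CDS searched that holds a run of 20 or more bases complementary to any of the 29 Arabidopsis depletion oligos. The match to the oligo Nu_25S_4, which targets nuclear-encoded 25S rRNA, covered all 42 bases of the oligo and CDS bases 56 to 97. This part of the CDS therefore has the sequence of the 25S rRNA stretch that the oligo targets. Whether its counts were footprints or fragments of rRNA was not tested, so they cannot be read as a change in translation. Capitals mark the part of the CDS that is complementary to the oligo, both sequences run 5′ to 3′, and the CDS was read from RefSeq's TAIR10.1 assembly without its stop codon.
AT2G01021: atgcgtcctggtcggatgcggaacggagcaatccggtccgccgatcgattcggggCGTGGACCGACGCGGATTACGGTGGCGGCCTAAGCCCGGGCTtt
Nu_25S_4: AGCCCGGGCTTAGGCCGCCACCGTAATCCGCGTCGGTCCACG
The other depleted libraries were low as well, with 23 counts in V1 and 10 in V2, and the undepleted repeat of 700 U had 8273. The CDS searched were the nuclear and chloroplast ones, and the 120 mitochondrial entries were not searched.

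Over all genes tested, 4130 were called between the groups, which was 27.9%. Of the called genes, 1962 (13.2% of those tested) were higher and 2168 (14.6%) were lower in the kit libraries. In 1940 genes (13.1%) both kit libraries lay above all undepleted ones, in 2143 genes (14.5%) both lay below, and in the remaining 47 called genes the groups overlapped. The change was at least 2-fold in 701 of the genes that moved higher and 971 of those that moved lower, and at least 8-fold in 32 and 59 of them. The median log2 fold change over all genes tested was 0.0, so the values below are read against 0. Called or not, 3674 of the genes tested (24.8%) had both kit libraries above the undepleted range and 3908 (26.4%) below it. DESeq2 called 2546 genes (17.2%), of which 1171 moved higher and 1374 lower and all of these were among the genes that moved by edgeR.

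**Figure D1:**
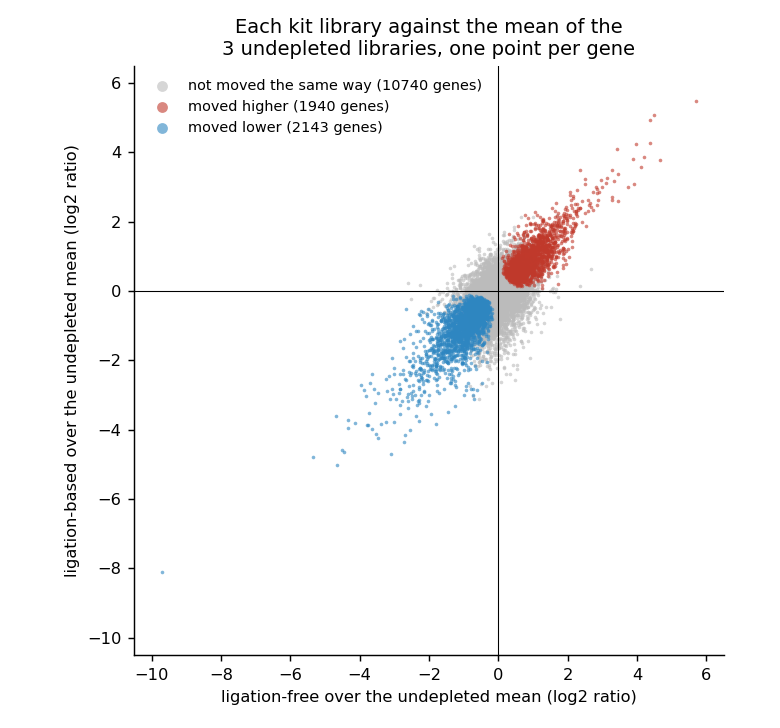
Each point is 1 of the 14823 genes tested, with the log2 ratio of the ligation-free library (x axis) and of the ligation-based library (y axis) to the mean of the 3 undepleted libraries. The 1940 genes that moved higher are red, the 2143 that moved lower are blue and the rest are grey; both axes share the undepleted libraries, and the lone point at the lower left is AT2G01021.

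Among genes averaging at least 50 counts, PRR9 and ELIP1 had the largest rise. PRR9, a pseudo-response regulator that acts in the morning phase of the circadian clock, had 340 and 165 counts in the kit libraries, against 2, 3 and 2 counts in the undepleted ones. Pooled over libraries it was 88.8-fold higher (95% counting interval 42.8 to 222, edgeR adjusted p = 3.1e-14). For PRR9, 30.2% of the 28-nt windows of the CDS also occur in another CDS, so part of its reads could belong to another gene. ELIP1, an early light-induced protein thought to protect the photosynthetic membrane in excess light, had 118 and 172 CPM in the kit libraries and 3.55, 5.49 and 6.5 CPM in the undepleted ones (log2 fold change 4.76, SE 0.22, edgeR adjusted p = 4.6e-14). Its paralog ELIP2 had 151 and 243 CPM in the kit libraries and 12.6, 12.2 and 16.4 CPM in the undepleted ones (log2 fold change 3.80).

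The other strongest rises spanned several functions. AT2G27420, of the cysteine proteinase superfamily, had 129 and 119.7 CPM in the kit libraries, against 4.74 to 7.12 CPM in the undepleted ones (log2 fold change 4.42). ABCI21, an ATP-binding transport-type protein, rose by 4.19 and BBX31, a B-box zinc finger protein, by 3.49 on the same scale. For both, the kit libraries stood far from the undepleted range. MYB13, a MYB transcription factor, rose by 3.31, LNK1, a light-induced partner of the clock, by 3.25, and F3H, the flavanone 3-hydroxylase of flavonoid synthesis, by 2.99. The gene with the highest level among the 10 was AT3G09440, a cytosolic HSP70-family chaperone gene, at 539 and 584 CPM in the kit libraries and 62.8, 60.8 and 58.8 CPM in the undepleted ones (log2 fold change 3.21). All 10 kept their call and direction when any 1 of the undepleted libraries was left out. PRR9 reached the count minimum only in the kit libraries, so it was not tested when 1 of these was left out.

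**Figure D2:**
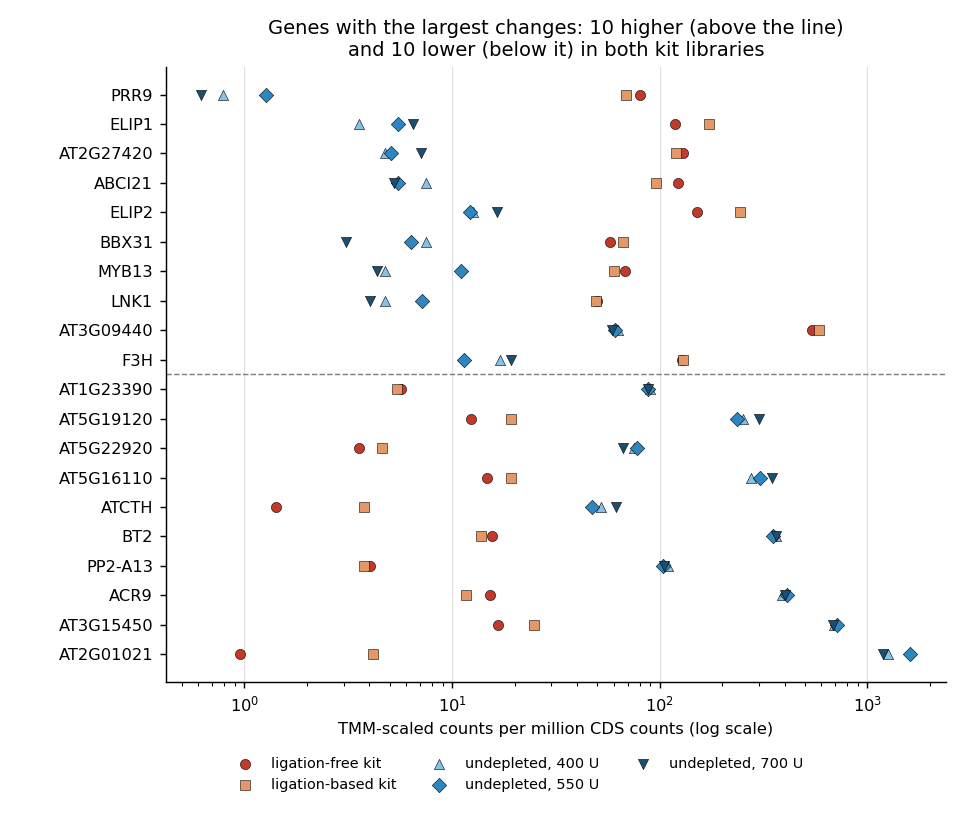
TMM-scaled CPM (x axis, log scale) in each of the 5 libraries for the 10 genes with the largest rise (above the dashed line) and the 10 with the largest fall (below it), among genes averaging at least 50 counts. Red and orange points are the kit libraries and blue points the undepleted ones; in every gene shown the kit points lie on one side of all blue points, from 0.948 CPM for AT2G01021 to 584 CPM for AT3G09440.

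Among genes averaging at least 50 counts, AT3G15450 had the next largest fall after AT2G01021. AT3G15450, an aluminium-induced-type protein with YGL and LRDR motifs, had 16.6 and 24.7 CPM in the kit libraries, against 691, 711 and 687 CPM in the undepleted ones (log2 fold change -5.12, SE 0.17, edgeR adjusted p = 2.2e-16). ACR9, an ACT-domain protein, had 15.2 and 11.7 CPM in the kit libraries and 389, 411 and 399.6 CPM in the undepleted ones (log2 fold change -4.86). BT2, a BTB and TAZ domain protein, had 15.6 and 13.8 CPM in the kit libraries and 363, 352 and 363 CPM in the undepleted ones (log2 fold change -4.59). In these 3 genes the undepleted libraries stayed close to each other across the RNase I doses, far above both kit libraries.

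PP2-A13, a phloem protein 2 family member, fell by 4.74 on the log2 scale, and ATCTH, a CCCH zinc finger protein, fell by 4.53. AT5G16110, an uncharacterized protein, fell by 4.22, AT5G22920, a RING-type zinc finger protein, fell by 4.2, AT5G19120, of the aspartyl protease family, fell by 4.12, and AT1G23390, a Kelch-repeat F-box protein, fell by 3.97. Adjusted p-values over these 6 genes ran up to 2.8e-11, for ATCTH, which was also the one of them with the fewest kit counts, 6 and 9.

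Of 19 genes known to be induced when sugar runs short, all tested, 14 fell, 1 rose and 4 were not called, against 14.5% lower and 13.1% higher of all genes tested, with a median log2 fold change of -1.0. TPS8, a class II trehalose-phosphate synthase-like protein, had 8.76 and 21.8 CPM in the kit libraries and 125, 109 and 118 CPM in the undepleted ones (log2 fold change -3.07). The related TPS9, TPS10 and TPS11 fell by 1.98, 1.47 and 1.71. DYL1, a dormancy-associated protein, had 5.92 and 10.0 CPM in the kit libraries and 58.8, 52.0 and 75.2 CPM in the undepleted ones (log2 fold change -3.05).

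Further members of the list act in the use of alternative carbon and nitrogen sources. AKINBETA1, a regulatory subunit of the SnRK1 energy-sensing kinase, fell by 2.16, MIOX2, a myo-inositol oxygenase, fell by 2.36, ERD5, the proline dehydrogenase, fell by 2.02, and ASN1, the dark-inducible asparagine synthetase, fell by 1.17. DIN9, a phosphomannose isomerase, was the exception that rose, with 76 and 46 counts in the kit libraries and 19, 12 and 30 in the undepleted ones (log2 fold change 1.31, edgeR adjusted p = 9.0e-04). The count of 14 falls held when any 1 of the 5 libraries was left out.

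Of the sugar-induced and anthocyanin genes, 5 of 14 passed the count minimum and 4 of these rose, against 13.1% of all genes tested. F3H rose as above, and TT5 (chalcone isomerase), FLS1 (flavonol synthase) and TT4 (chalcone synthase) rose by 1.64, 1.16 and 0.85 on the log2 scale. TT7, the flavonoid 3′-hydroxylase, was not called (log2 fold change -0.46). The members that moved act in flavonoid synthesis, and the later anthocyanin genes had few counts in all 5 libraries, such as DFR with 30 over both kit libraries and 9 over the 3 undepleted ones.

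Genes of the circadian clock moved in both directions, with 4 of the 15 tested higher, 4 lower (13.1% and 14.5% of all genes tested) and a median log2 fold change of 0.02. PRR9, GI and PRR7 reached the count minimum only in the kit libraries. GI, a large clock protein of the late day, had 72 and 62 counts in the kit libraries, against 0, 1 and 0 counts in the undepleted ones, a pooled ratio of 165 with a 95% counting interval from 29.1 to 6560 (edgeR adjusted p = 4.3e-09). PRR7, which follows PRR9 during the day, had 36 and 20 counts in the kit libraries and 3, 2 and 0 in the undepleted ones, a pooled ratio of 13.8 (5.57 to 44.1). With PRR9 and LNK1, these were the 4 clock genes that rose.

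RVE1, a MYB-like factor that links the clock to auxin, had 33.9 and 24.7 CPM in the kit libraries and 364, 374 and 347 CPM in the undepleted ones (log2 fold change -3.59, SE 0.15). ELF3, a member of the evening complex, fell by 1.43, TOC1, the evening-phased pseudo-response regulator, fell by 1.31, and GRP7, a clock-regulated RNA-binding protein, fell by 1.12. The dawn-phased LHY and CCA1 were not called, at log2 fold changes of -0.14 and 0.24, and neither was LNK2 at 0.02. Leaving out a kit library took GI, PRR9 and PRR7 below the count minimum, so that 12 clock genes were tested and 1 (without ligation-free) or 2 (without ligation-based) moved higher. PRR5, ELF4 and FKF1 did not reach the count minimum. The median changed sign without either kit library, to -0.13 and -0.02.

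On a scale fitted over 11 Arabidopsis libraries, the depleted V1 and V2 and the 8-day libraries could be read beside the kit libraries. PRR9 had 78.0 and 67.4 CPM in the kit libraries, 32.7 and 32.6 CPM in V1 and V2, 25.8 to 29.3 CPM in the 8-day RNase I libraries, and 0.469 CPM in the repeat of 700 U. RVE1 had 32.8 and 24.1 CPM in the kit libraries, 22.3 and 28.9 CPM in V1 and V2, and 360.4 CPM in the repeat. AT3G15450 had 16.1 and 24.1 CPM in the kit libraries, 35.5 and 47.4 CPM in V1 and V2, and 704 CPM in the repeat. For these genes the repeat library sat with the undepleted libraries, and V1 and V2 sat nearer the kit libraries. The 8-day libraries were undepleted, from younger seedlings grown with sucrose and longer days. In them AT3G15450 had 26.7 to 38.8 CPM and ELIP1, at 114 and 168 CPM in the kit libraries on this scale, had 122 to 142 CPM.

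Of 12 heat-shock genes 4 were tested and these rose, against 13.1% of all genes tested, but HSP101 had reached the count minimum only in the kit libraries. HSP101, a disaggregating chaperone, rose by 2.62 on the log2 scale, HSP70 by 2.59, HSP90.1 by 1.31 and the co-chaperone Fes1A by 1.27. HSP70 had 34.1 and 39.3 CPM in the kit libraries and 5.53, 5.49 and 6.81 CPM in the undepleted ones. The 8 heat-shock genes not tested included the small heat-shock proteins. Without the ligation-based library 3 were tested and 2 rose.

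Among 9 cold-regulated genes 5 rose and none fell, against 13.1% and 14.5% of all genes tested, with a median log2 fold change of 0.48. COR15A, a chloroplast-targeted protective protein, had 40 and 32 counts in the kit libraries and 4, 6 and 6 counts in the undepleted ones (log2 fold change 2.48), and it reached the count minimum only in the kit libraries. The dehydrin gene ERD10 rose by 1.93, LTI78 (RD29A) by 1.35 and COR47 by 0.57. The other 4 were not called and lay between -0.50 (KIN1) and -0.14 (LTI30).

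Touch and early wound genes included 4 that rose and 1 that fell among 7 tested, against 13.1% and 14.5% of all genes tested, and JAZ1 reached the count minimum only in the kit libraries. The calmodulin-like TCH2 had 71.3 and 71.1 CPM in the kit libraries and 27.2, 27.0 and 28.2 CPM in the undepleted ones (log2 fold change 1.37). TCH4, a cell-wall xyloglucan-modifying enzyme, rose by 1.09 and TCH3 by 0.61. JAZ1, a jasmonate repressor, had 14 and 10 counts in the kit libraries and 3, 4 and 1 in the undepleted ones, a pooled ratio of 3.69 (1.6 to 9.5). The zinc finger repressor STZ had 19 and 6 counts in the kit libraries and 23, 22 and 33 in the undepleted ones, and fell by 1.36 on the log2 scale. AOS, the allene oxide synthase of jasmonate synthesis, was the 1 gene of 7 on the jasmonate list that moved, and rose by 1.15, with 2 higher without the 550 U library. Of 3 defence genes tested none was called by edgeR or DESeq2, and the edgeR adjusted p was 0.33 for PR5, 0.19 for PR4 and 0.52 for BGL2, with none under 0.05 unadjusted.

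Of 10 nitrate and ammonium assimilation genes, 5 rose and none fell, against 13.1% and 14.5% of all genes tested. NIA1, a nitrate reductase, had 722 and 805 CPM in the kit libraries and 396, 366 and 409.8 CPM in the undepleted ones (log2 fold change 0.96), and NIR1, the nitrite reductase, rose by the same amount. The glutamate synthase genes GLU2, GLU1 and GLT1 rose by 0.68, 0.60 and 0.49. The second nitrate reductase, NIA2, was not called (-0.18), nor was the chloroplast glutamine synthetase GS2 (0.04).

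Of 6 low-oxygen genes tested 1 rose and 1 fell, shares near the 13.1% and 14.5% of all genes tested, with a median log2 fold change of -0.45. PDC2, a pyruvate decarboxylase, had 96 and 64 counts in the kit libraries and 20, 22 and 34 in the undepleted ones (log2 fold change 1.39). HRA1, a repressor of the low-oxygen response, had 6 and 1 counts in the kit libraries and 27, 14 and 14 in the undepleted ones (log2 fold change -2.67). HRA1 reached the count minimum only in the undepleted libraries. Without the ligation-based or the 700 U library 2 fell. Among 6 photoprotective proteins related to the light-harvesting proteins, ELIP1 and ELIP2 rose as above, NPQ4 (PsbS), needed for the fast dissipation of excess light energy, rose by 0.48, and OHP fell by 0.48.

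Histone genes of the replication-dependent class rose in 9 of 21 cases and fell in none, against 13.1% and 14.5% of all genes tested, with a median log2 fold change of 0.47, and HTA10, a histone H2A, rose the most (1.50), although 18.7% of its windows occur in another CDS. Of 14 translation factors 7 rose, 1 of which (EEF1BA1) reached the count minimum only in the kit libraries, including EIF4A-2 by 0.82 and EF1BGAMMA1 by 0.50. Leaving out the ligation-based, 400 U or 550 U library left 3, 4 and 3 of them. Cytosolic ribosomal proteins moved little, with 3 of 28 higher, 2 lower and a median of 0.13, and 8 were higher without the ligation-free library and 1 without the 400 U or the 700 U library. The number lower was 1 without the ligation-free library and 0 without any 1 of the undepleted ones.

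Of 20 light-harvesting proteins 5 fell and none rose, against 14.5% and 13.1% of all genes tested, with a median log2 fold change of -0.22, which became 0.02 without the ligation-free library. LHCB4.2, a minor antenna protein of photosystem II, had 894 and 1202 CPM in the kit libraries and 1809, 1820 and 2019 CPM in the undepleted ones (log2 fold change -0.85). The number of falls was 17 without the ligation-based library, 3 without the ligation-free one and 2 without any one of the undepleted libraries, so it turned on single libraries.

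Of 20 Calvin-Benson cycle genes 8 fell and none rose, against 14.5% and 13.1% of all genes tested, with a median log2 fold change of -0.18. CP12-1, a redox-regulated scaffold protein, fell by 0.87, PRK, the phosphoribulokinase, by 0.60 and RBCS1A, a Rubisco small subunit, by 0.50. RBCS1A had 10835 and 11291 CPM in the kit libraries and 14869, 15285 and 16936 CPM in the undepleted ones. The number of falls was 15 without the ligation-based library and 5 without the 400 U or the 550 U library. Rubisco small subunit genes share sequence (71.5% of the windows of RBCS1B), so reads may be split among them. Rubisco activase, RCA, was not called (-0.19).

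**Figure D3:**
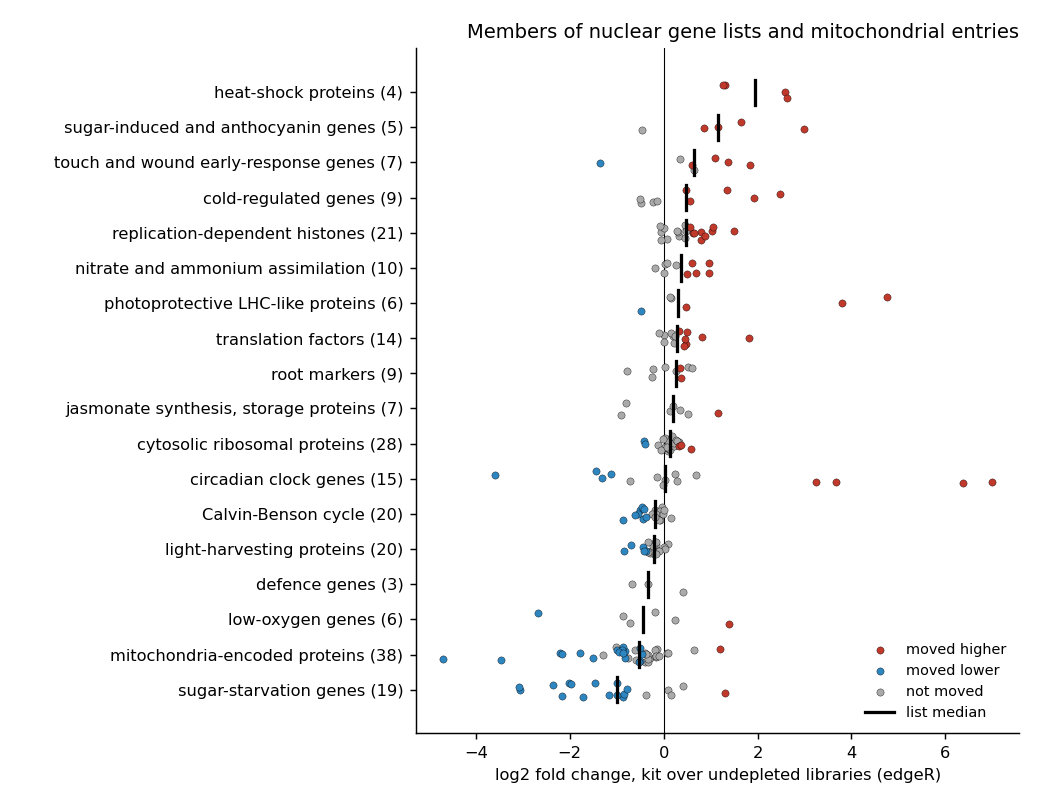
Each point is the log2 fold change (x axis, kit over undepleted libraries, edgeR) of 1 tested gene of the named list, with the number tested in brackets and the list median as a black bar. Red genes moved higher and blue genes moved lower in both kit libraries; the medians run from 1.95 for heat-shock proteins to -1.0 for sugar-starvation genes, and the clock genes spread from -3.59 (RVE1) to 6.99 (GI).

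Genes encoded in the chloroplast were higher as a class in the kit libraries than in the undepleted 14-day ones. Of the 84 entries tested, 60 moved higher and 2 lower, against 13.1% and 14.5% of all genes tested, and the median log2 fold change was 0.72. Genes with 2 copies in the inverted repeat count as 2 entries, although reads from identical copies cannot be told apart. Leaving out 1 library gave 51 to 72 higher, with 6 lower without the ligation-free library and 0 without the 400 U or the 550 U library. Chloroplast CDS took 19.6% and 17.8% of all CDS counts in the kit libraries, against 15.2%, 14.9% and 13.6% in the undepleted ones, so the groups did not overlap. The means were 18.7% ± 1.29 (SD, n = 2) and 14.6% ± 0.841 (SD, n = 3), a difference of 4.16 percentage points (2-sided exact permutation test, p = 0.1, the smallest that 10 regroupings allow). With psbA and rbcL taken out of the totals the difference was 3.49 points. Counting error was small, with an exact binomial 95% interval of 17.8% to 17.9% for the widest of the 5. Outside this comparison, the chloroplast share was 15.3% in the repeat of 700 U and 21.8% and 23.7% in V1 and V2. In the undepleted 8-day libraries it was 20.5% to 21.5%, so V1, V2 and the 8-day libraries all lay above the kit libraries. Because all shares sum to the same total in each library, a higher chloroplast share means a lower share of the other genes, and footprints per cell were not measured.

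The 2 most abundant chloroplast genes went opposite ways. rbcL, the large subunit of the carbon-fixing enzyme Rubisco, took 5.47% and 5.93% of CDS counts in the kit libraries and 3.75%, 3.67% and 3.24% in the undepleted ones (log2 fold change 0.70, SE 0.11, edgeR adjusted p = 5.6e-05). psbA, the fast-turnover D1 protein of photosystem II, took 4.16% and 3.87% in the kit libraries and 5.28%, 5.17% and 4.8% in the undepleted ones (log2 fold change -0.33, SE 0.11, edgeR adjusted p = 0.03). rbcL counts were 1.32 and 1.53 times those of psbA in the kit libraries and 0.71, 0.71 and 0.675 times in the undepleted ones. The fall of psbA missed the threshold without the 400 U or the 550 U library (adjusted p = 0.25 in both). In V1 and V2 the ratio of rbcL to psbA was 2.39 and 1.27, and in the 8-day libraries it was 2.19 to 2.28.

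**Figure D4:**
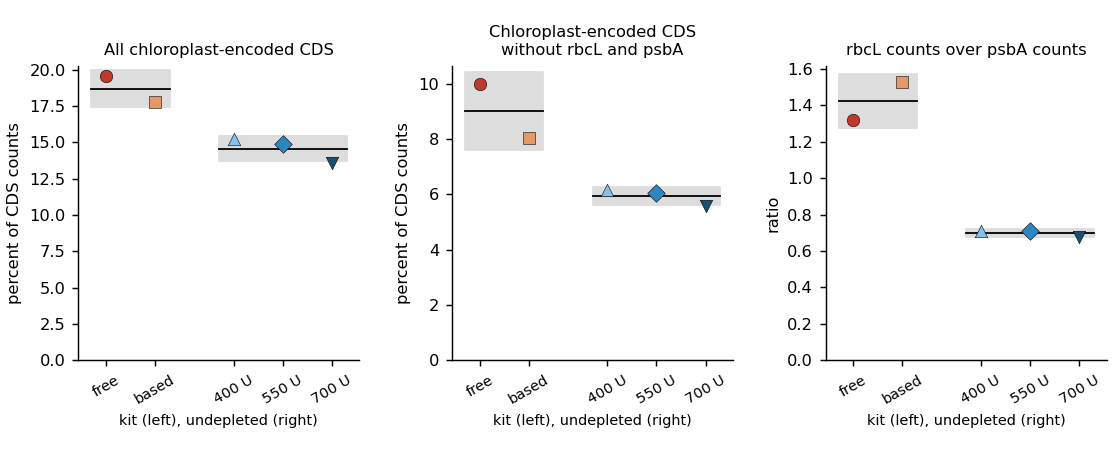
Chloroplast-encoded CDS as a percent of all CDS counts, the same without rbcL and psbA in the numerator, and the ratio of rbcL to psbA counts, in the 2 kit libraries (left) and the 3 undepleted libraries (right). Lines are group means and grey bands 1 SD (n = 2 and n = 3); all 3 measures are higher in both kit libraries than in any undepleted one.

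Among the chloroplast-encoded lists, the NDH complex, which cycles electrons around photosystem I, had the largest median log2 fold change. This did not hold in the ligation-based library alone, where its median log2 ratio was 0.67, against 0.70 for the ribosomal proteins. Of its 12 entries 9 rose and none fell, with a median log2 fold change of 1.10. Of all 84 chloroplast entries 60 rose and 2 fell, and of all genes tested 13.1% and 14.5%. ndhC had 83.4 and 133 CPM in the kit libraries and 26.5, 28.3 and 24.1 CPM in the undepleted ones (log2 fold change 2.02). ndhJ rose by 1.82, ndhI by 1.53 and ndhA by 1.46, while ndhB, present in 2 copies in the inverted repeat, had 0.04 and 0.09 and was not called. ndhC and ndhK lie next to each other in one transcript unit and their increases were 2.02 and 1.02.

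In the other thylakoid complexes most members rose, as did 60 of all 84 chloroplast entries and 13.1% of all genes tested. Lower were 2 of the 84 entries and 14.5% of all genes tested. All members of the cytochrome b6f complex except petN rose (5 of 6, median 0.92), with petA, cytochrome f, at 1838 and 1506 CPM in the kit libraries and 636, 579 and 585 CPM in the undepleted ones (log2 fold change 1.48). Of 6 ATP synthase genes 5 rose (median 0.63), led by atpF at 1.25, and 3 rose without the ligation-free, 550 U or 700 U library. In photosystem I, psaA and psaB, the reaction-centre proteins, rose by 0.61 and 0.63, psaJ rose by 0.91, and psaI was called but overlapped the undepleted range. Photosystem II was mixed, with 8 of 15 higher and 2 lower (psbA and psbF; 4 lower without the ligation-free and 0 without the 400 U or 550 U library) and a median of 0.29. psbT rose by 1.51, psbE by 1.18 and psbB, the CP47 antenna protein, by 0.86. psbF, which follows psbE in the same transcript unit, fell by 0.46, to 324 and 443 CPM in the kit libraries, against 548, 536 and 490.2 CPM in the undepleted ones.

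Of 23 entries for chloroplast ribosomal proteins 21 rose and none fell (median 0.84), beside 60 and 2 of all 84 chloroplast entries. Over all genes tested 13.1% rose and 14.5% fell. Log2 fold changes ran from 1.72 and 1.66 for the 2 copies of rps7 down to 0.13 for rps18, which was not called. The genes rpl2 and rpl23 are likewise entered as 2 identical copies, so the entries that rose stand for fewer genes. rps7 had 191 and 137 CPM in the kit libraries and 44.6, 53.6 and 52.6 CPM in the undepleted ones for the first copy, and reads from the identical copies cannot be told apart. Of the 4 subunits of the chloroplast-encoded RNA polymerase only rpoC1 moved the same way in both kit libraries (0.68), with 3 doing so without the ligation-based and 2 without the 400 U library. clpP, a subunit of the stromal Clp protease, had 375 and 342 CPM in the kit libraries and 99.9, 119 and 92.5 CPM in the undepleted ones (log2 fold change 1.79), and the photosystem I assembly factors ycf4 and ycf3 rose by 1.25 and 1.18. These belong to 11 other chloroplast entries tested, rbcL among them, of which 8 rose, or fewer without the ligation-free library. In this set ycf1 and ycf2 have 2 entries each.

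**Figure D5:**
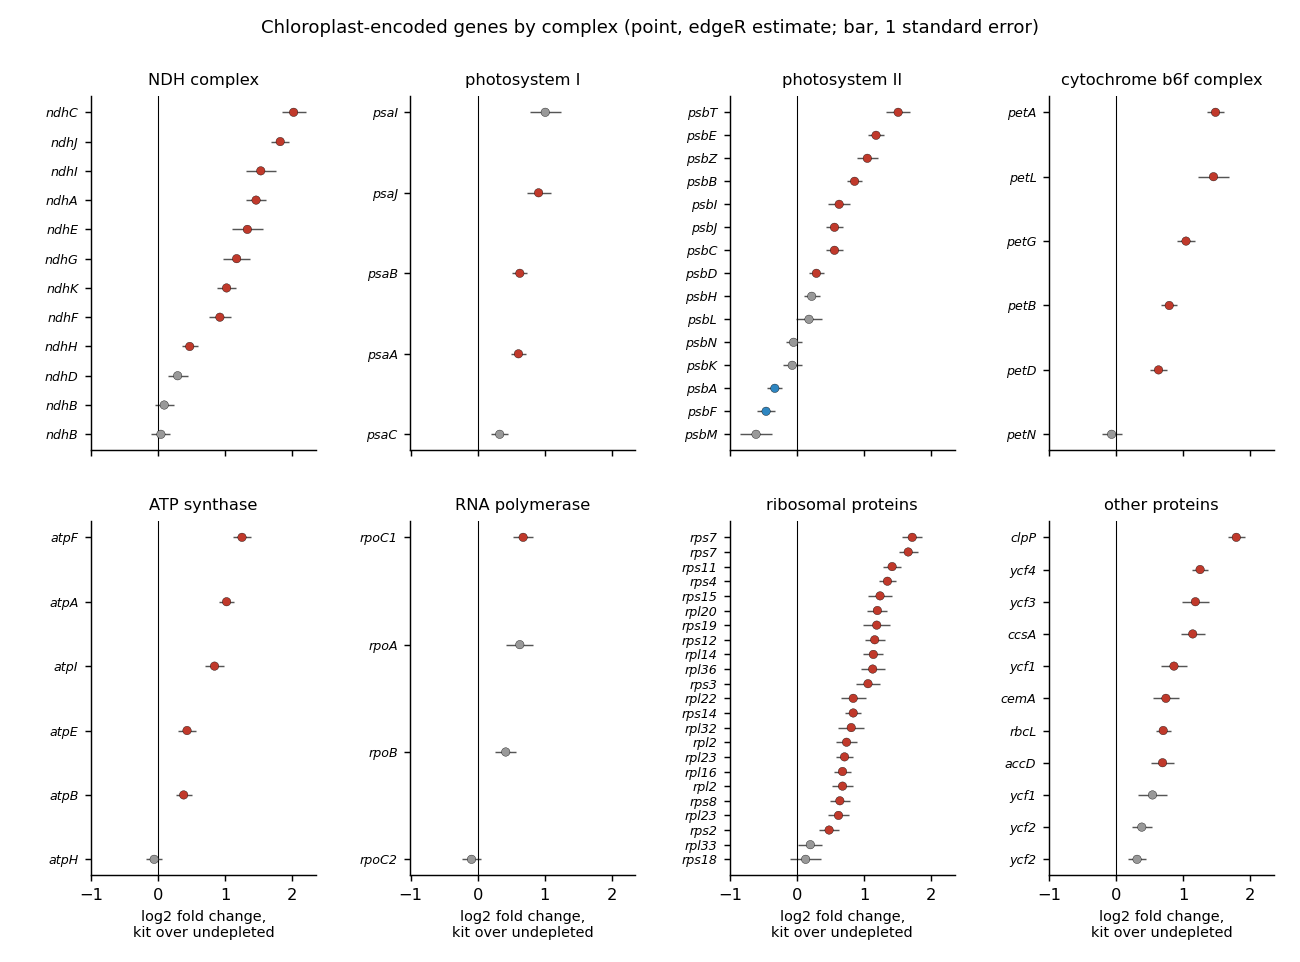
Log2 fold change (x axis, kit over undepleted libraries; bars, 1 SE of the edgeR fit) of each tested chloroplast-encoded gene, grouped by complex. Red genes moved higher and blue genes lower in both kit libraries; NDH subunits reach 2.02 (ndhC), and psbA and psbF are the 2 that moved lower.

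The size of the chloroplast increase differed between the kits. Against the undepleted mean, the median log2 ratio of the NDH genes was 1.35 in the ligation-free and 0.67 in the ligation-based library, and that of the ribosomal proteins was 1.17 and 0.70. Among the chloroplast genes named here, psaI showed the widest gap in log2 ratio. It had 330.5 CPM in the ligation-free and 116 CPM in the ligation-based library, against 128, 108 and 103 CPM in the undepleted ones. CDS with low GC content were relatively higher in the ligation-free library. For nuclear CDS under 40% GC the median log2 ratio was 0.16 in the ligation-free and -0.22 in the ligation-based library, and for those of 48% GC and over it was -0.19 and 0.0. psaI has 31.5% GC and ndhI 33.5%, while the median over all genes tested was 44.6%. The part of base composition in the chloroplast values was not tested.

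Mitochondrial entries, which are given by their identifiers, more often fell than rose. Of 38 tested, 17 fell and 1 rose, against 14.5% and 13.1% of all genes tested, with a median log2 fold change of -0.51, and 11 fell by DESeq2 and 9 without the 550 U library. Of the 17, 5 had reached the count minimum only in undepleted libraries. ATMG01190 had 1003 and 538 counts in the kit libraries and 1032, 1054 and 1354 in the undepleted ones (log2 fold change -0.87), and ATMG00160 fell by 0.99. ATMG01130 had 1 and 0 counts in the kit libraries and 15, 19 and 5 in the undepleted ones. Pooled over libraries it was 31.7-fold lower, with a counting interval from 5.36 to 1280. ATMG01130 reached the count minimum only at 400 and 550 U. The undepleted repeat of 700 U had 1 count and the undepleted 8-day RNase I libraries had 0, 1 and 0, so its fall does not extend to those libraries. The one that rose, ATMG00280, had 18687 and 9830 counts in the kit libraries and 5229, 4803 and 4779 in the undepleted ones (log2 fold change 1.2). Of the 28-nt windows of the chloroplast rbcL CDS, 22.8% also occur in the RefSeq mitochondrial genome, and ATMG00280 counts were 8.28% and 6.71% of the rbcL counts in the kit libraries and 5.58%, 5.59% and 4.51% in the undepleted ones. All mitochondrial entries together took 0.642% and 0.556% of CDS counts in the kit libraries and 0.483%, 0.491% and 0.393% in the undepleted ones. Without ATMG00280, they took 0.189% and 0.158% of CDS counts in the kit libraries and 0.274%, 0.285% and 0.247% in the undepleted ones.

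CDS length, which the rule did not use, differed between the genes that moved higher and those that moved lower. CDS of genes that moved higher had a median length of 1378 nt and those of genes that moved lower 1056 nt, against 1212 nt for all tested. Among nuclear CDS of 2400 nt and over, 18.4% moved higher and 7.0% lower. Among those under 300 nt, 9.81% moved higher and 18.8% lower. In both kits the median log2 ratio was lowest for CDS under 600 nt and highest for the longest class, at 0.19 in the ligation-free and 0.15 in the ligation-based library. The genes that moved lower took 19.6% of kit CPM and 30.4% of undepleted CPM, and those that moved higher took 31.6% and 19.3%. Both directions follow from the rule that chose the genes.

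The kit libraries resembled each other in the genes that moved, as the rule requires, yet differed in others. Among the 4083 genes the median absolute difference between the log2 ratios of the ligation-free and ligation-based libraries was 0.25, and it exceeded 1 in 137 genes (3.36%). In 1092 genes tested the kit libraries lay on opposite sides of the undepleted range, 531 with the ligation-free library above it and 561 with it below. Of the 1092, 533 averaged at least 50 counts and 1 was called between the groups. Whether more genes did so than unrelated libraries would give was not tested. MBR1, a RING-type ubiquitin ligase protein, had 461 counts in the ligation-free and 42 in the ligation-based library, against 64, 72 and 128 in the undepleted ones. ACC2, an acetyl-CoA carboxylase, had 182 counts in the ligation-free and 21 in the ligation-based library, and 21 in each of the undepleted ones. Each kit has 1 library, so these differences have no replicate check.

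V1 and V2 share fragment size, dose and age with the kit libraries and were also rRNA-depleted, each with its own set of oligos, while the set used for the kit libraries is not stated. In that comparison no gene of 15640 was called by edgeR (0%), with 1908 genes (12.2%) at an unadjusted p under 0.05, and DESeq2 called 95 (0.607%). The fit gave 1 biological coefficient of variation over both groups, 0.257. It was 0.109 in the comparison with the undepleted libraries, which held the same kit libraries. Without V1, 2009 genes were called, without V2 1202, and with no filter on low counts 657. The count of 0 therefore says only that the groups did not separate beyond the spread between V1 and V2. HSP70 is an example of that spread, at 33.0 and 38.4 CPM in the kit libraries, 33.8 CPM in V1 and 186 CPM in V2.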

How the data were processed

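The deposited values are raw read counts per CDS. According to the methods, the authors trimmed adapters with cutadapt, removed rRNA, tRNA and snoRNA reads and aligned the rest to TAIR10 with STAR, keeping 1 alignment of each multi-mapped read, and counted sense-strand reads over CDS with featureCounts. No source used here states the version of any of them. A multi-mapped read can therefore be assigned to any 1 of several identical sequences. The tables were joined by gene identifier, and 3 columns of per-library counts from MNase digests, no part of this comparison, were not used. The tobacco libraries were not used here.

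A gene was kept when 2 or more libraries had 10 or more counts, and counts were normalized by TMM and tested with edgeR 4.0.16 (quasi-likelihood test, Benjamini-Hochberg over all genes tested) in R 4.3.3 with limma 3.58.1, and called at an adjusted p under 0.05. DESeq2 1.42.0 was an alternative, as were other scalings, other count minimums, the repeat 700 U library and leaving out each library. CPM values are TMM-scaled over the 5 libraries. Log2 ratios of single kit libraries use a prior count of 2, and list ratios of single libraries a pseudocount of 0.5 CPM on a scale over 11 libraries. Where a group averaged 3 counts or fewer, the ratio of pooled counts is given with its exact 95% counting interval. According to the methods, molecular identifiers were trimmed with the adapters, and no source used here states that duplicates were collapsed, so intervals cover counting error only. Python 3.11.15 with pandas 2.3.3, numpy 2.4.6, scipy 1.17.1 and matplotlib 3.10.9 was used for the summaries and figures.

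Described by name are the 10 genes with the largest change in each direction among moved genes averaging at least 50 counts, up to 4 members with the largest change of each of 27 lists, the most abundant chloroplast and nuclear genes, the genes in which the kit libraries differed most, and AT2G01021, ELIP1, DYL1 and rbcL. Other list members named were picked after their values were seen. The comparison, the lists and the tests were chosen with earlier results of these data known. Counts were simulated for 14766 genes of the comparison with undepleted libraries, with a common spread for all genes, estimated within the undepleted libraries. Differences in spread between genes, and differences between the kits, were not simulated. Of 200 changed genes 168 were called the right way, including 100 of 100 at 4- and 8-fold, and 6 unchanged genes were called. These numbers hold for that spread only and do not give the share of false calls in the real libraries.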

Additional observations from a re-analysis of the deposited data

How the results depend on the processing

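No paired analysis was possible because the library numbers follow accession order or dose and do not tie a kit library to an undepleted one. DESeq2 called 2546 genes between the kit and undepleted libraries, with 1171 moved higher and 1374 lower, against 4130, 1940 and 2143 by edgeR; the cause was not tested. Leaving out 1 library gave 2916 to 4161 genes called, 1355 to 1978 moved higher and 1559 to 2183 moved lower, and kept 68.4% to 83.4% of the moved genes. The other scalings, count minimums and uses of the repeat library gave 3088 to 4314 called. The chloroplast difference stayed between 3.25 and 5.07 percentage points. Against V1 and V2, DESeq2 called 95 genes and the fit with no filter 657, and leaving out 1 library gave 0 to 2009, with 2009 without V1 and 1202 without V2; with 1 library left in a group, that library is assumed to vary like the others. Of 1659 values of named genes, 1566 kept direction and call, 66 lost the call, 26 gained it and 1 reversed, MBR1 at -0.87 without the ligation-free library. Median log2 fold changes of lists reversed for light-harvesting proteins (0.02) and clock genes (-0.13) without the ligation-free library, clock genes without the ligation-based one (-0.02), root markers with no filter (-0.12), low-oxygen genes with at least 50 counts (1.39, 1 gene tested), and defence genes without the ligation-free (0.1), ligation-based (0.03) or 700 U library (0.23). Few counts in many members limited the heat-shock, anthocyanin, clock and mitochondrial lists, and whether depth or low expression was the reason was not tested.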

Other observations

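On the scale over 11 libraries, lists could be read in single libraries against the undepleted mean. The sugar-starvation, heat-shock, replication-dependent histone and chloroplast-encoded lists went the same way in V1 and V2 as in the kit libraries. The medians of the touch and wound, low-oxygen and clock genes and of the mitochondrial entries went the other way in V1 and V2. Those of the clock genes were only 0.05 and 0.04 in the kit libraries. The Calvin-Benson median was lower in the kit libraries and V1 but higher in V2. In the light-harvesting, jasmonate and defence lists the kit libraries themselves differed in sign. The median log2 ratio of the sugar-starvation genes was -1.11 in the ligation-free and -0.98 in the ligation-based library, -1.33 in V1 and -2.26 in V2, and 0.04 in the repeat of 700 U. In the 8-day RNase I libraries it was -1.18 to -1.39. For touch and wound genes it was 0.73 and 0.77 in the kit libraries, -0.86 in V1 and -0.85 in V2, and 0.07 in the repeat. For mitochondrial entries it was -0.48 and -0.67 in the kit libraries, 0.25 in V1 and 0.03 in V2, and -0.06 in the repeat. All these ratios share the undepleted libraries, and no difference between them was tested.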
